A study of Arachis hypogaea with 3 samples.

Results

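The asparagine synthetases of the peanut (Arachis hypogaea) gynophore are described here, meaning every sequence of the expression table whose best protein match was described as asparagine synthetase or asparagine synthase. Of the 83579 sequences of the table, 19 met this rule, 7 of them unigenes of the assembly and 12 of them public peanut sequences, and 18 of the 19 had at least 1 read. The family was chosen from these same libraries because its summed reads were higher in each later stage, so the levels below are a description of 3 libraries and carry no test. The gynophore is the stalk that carries the fertilized ovary from the flower into the soil. All 3 libraries came from farm-grown plants of the cultivar Luhua 14, without any treatment or transgene, and each stage had 1 library. S1 was the aerial gynophore, green or purple and 3 to 5 cm long. S2 was the gynophore after about 3 days in the soil. S3 was the gynophore grown in darkness that carried a pod 2 to 3 mm long. Poly(A) RNA was sequenced, and the 20734295 reads counted on the table's sequences were spread evenly, with 32.2% to 34.5% of them in a library. The number of plants behind a library is not stated, nor whether the RNA came from the gynophore tip or the whole gynophore. With 1 library per stage, a difference between stages cannot be told apart from a difference between these libraries.

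Asparagine synthetase transfers the amide nitrogen of glutamine to aspartate at the cost of ATP, and releases asparagine and glutamate. Asparagine carries much nitrogen for little carbon, and legumes use it to move and store nitrogen, including nitrogen sent to growing seeds and fruits. Plants hold several asparagine synthetase genes, and in Arabidopsis ASN1, also known as DIN6, is known for high mRNA in darkness and low mRNA when sugar is plentiful.

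The summed asparagine synthetase reads were higher at each later stage, and 6 of the 19 sequences held 99.0% of the difference between S1 and S3, though a smaller share of that between S1 and S2. The family's reads numbered 2017, 4435 and 9007 in S1, S2 and S3. Scaled to the counted reads of each library, S1 held 292 RPM, or reads per 1000000 counted reads (95% exact Poisson interval 279 to 305), S2 held 665 RPM (645 to 684) and S3 held 1259.8 RPM (1234 to 1286). The summed level was thus 2.28 times higher in S2 than in S1 (95% exact Clopper-Pearson interval 2.16 to 2.40), 1.90 times higher in S3 than in S2 (1.83 to 1.97) and 4.32 times higher in S3 than in S1 (4.11 to 4.53). These intervals cover counting error only. Whether more cells of a type held the mRNA or each cell held more of it cannot be told apart in bulk tissue.

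The sequence with the most reads was JK180262, a public sequence of 572 bases that best matched a soybean (Glycine max) asparagine synthetase. Its reads in the 3 stages numbered 43, 709 and 2389, which is 10.9, 186 and 584 RPKM (reads per kilobase of sequence per 1000000 counted reads). The level was 17.1 times higher in S2 than in S1 (12.5 to 23.8) and 3.15 times higher in S3 than in S2 (2.89 to 3.43). Already in S1 its few reads touched 88.8% of its bases, and in S3 they touched 99.3%. This sequence alone held 33.9% of the summed difference between S1 and S3.

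Unigene54208, 309 bases long and matched to another soybean asparagine synthetase, held a further 23.8% of that difference. Its reads numbered 25, 437 and 1671, and its RPKM was 11.7, 212 and 756. The S2 level was 18.1 times the S1 level (12.1 to 28.3), and the S3 level was 3.57 times the S2 level (3.21 to 3.98). Per base of sequence it was the member with the highest level in S3.

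JK161159, 590 bases long, best matched an asparagine synthetase of Securigera parviflora, a legume. It had 28, 301 and 1210 reads, or 6.87, 76.4 and 287 RPKM, in S1, S2 and S3. Its level was 11.1 times higher in S2 than in S1 (7.55 to 17.0), and 3.75 times higher in S3 than in S2 (3.30 to 4.27). Only 51.9%, 58.8% and 59.0% of its bases were touched by a read in the 3 libraries, so that its RPKM averages over a stretch without any counted read. The same limit applies to other members described below. Among them, JK184576 had 18.0%, 55.9% and 57.9% of its bases touched, and Unigene68984 had 45.0%, 45.7% and 46.0%.

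Unigene28744 was the shortest member, at 176 bases, and best matched a second Securigera parviflora protein. It had 12, 260 and 861 reads, or 9.87, 221 and 684 RPKM. The ratios were 22.4 at the first step (12.6 to 44.0) and 3.09 at the next (2.69 to 3.57). The annotation gives this sequence the GO terms cellular response to starvation and response to light intensity, which 2 of the 19 members carry. The other carrier, JK192457, is among the members that showed no steady increase.

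The remaining members of the group were rare in S1. Unigene62578, 438 bases long and matched to the same soybean protein as JK180262, had 6, 122 and 556 reads, or 1.98, 41.7 and 178 RPKM. Its level was 21.1 times higher in S2 than in S1 (9.40 to 58.5) and 4.25 times higher in S3 than in S2 (3.49 to 5.22). JK184576, 544 bases long and matched to the same soybean protein as Unigene54208, had 2, 62 and 283 reads, or 0.532, 17.1 and 72.8 RPKM. With 2 reads in S1 its first ratio is loosely set, at 32.1 (8.52 to 271), while the second was 4.26 (3.23 to 5.70).

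**Figure D1:**
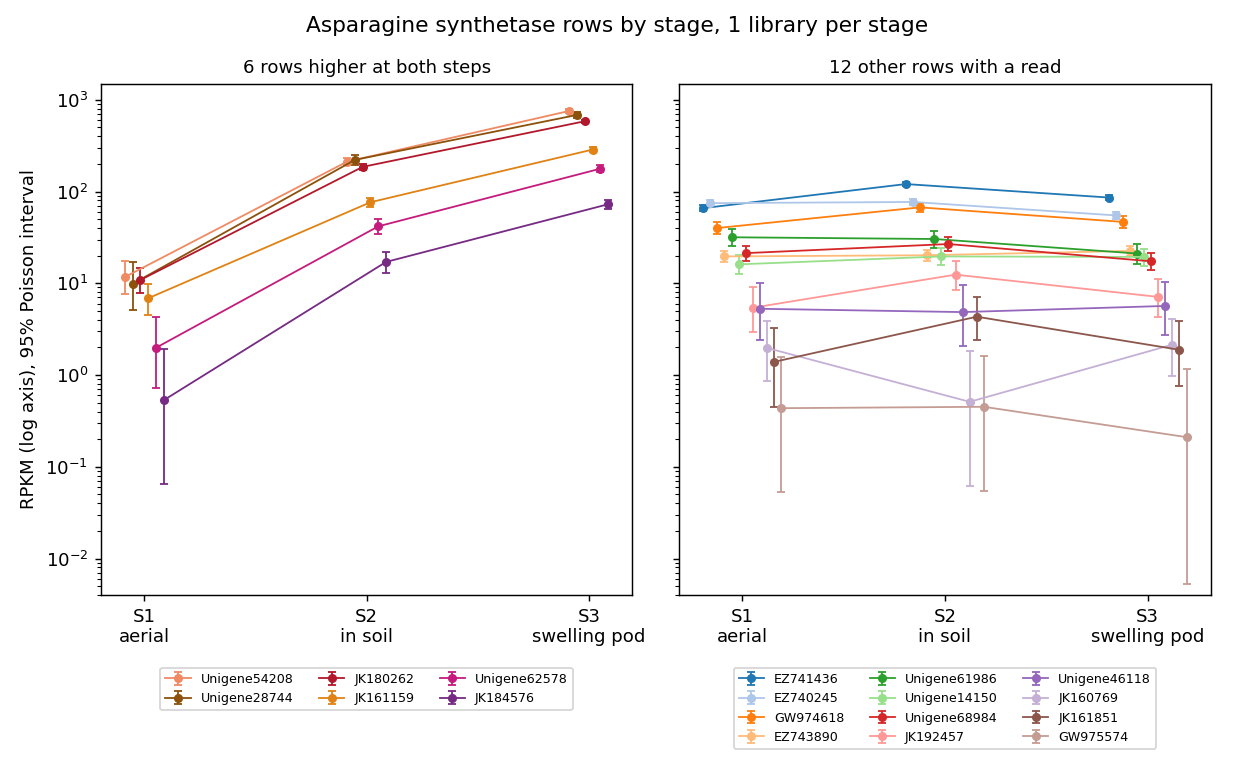
RPKM of each asparagine synthetase sequence with a read in S1, S2 and S3 on a log axis, with 95% exact Poisson intervals and 1 library per stage. The 6 sequences on the left lie between 0.532 and 11.7 RPKM in S1 and between 72.8 and 756 RPKM in S3, while the 12 on the right have medians of 17.8, 19.9 and 18.4 RPKM in the 3 stages.

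These 6 sequences were grouped after their values had been seen, as the members at least 2 times higher in RPKM + 1 at both steps. Together they had 116, 1891 and 6970 reads, which is 16.8, 283 and 975 RPM. Their summed level was 16.9 times higher in S2 than in S1 (14.0 to 20.5), 3.44 times higher in S3 than in S2 (3.27 to 3.62) and 58.1 times higher in S3 than in S1 (48.3 to 70.4). They held 5.75%, 42.6% and 77.4% of the family's reads in the successive stages, and so were its larger part in S3 only.

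The 6 sequences had similar but not equal proportions among themselves in the 3 stages. Of their summed reads, JK180262 held 37.1%, 37.5% and 34.3% from the first stage to the last, and Unigene54208 held 21.6%, 23.1% and 24.0%. The share of JK161159 was 24.1%, 15.9% and 17.4%, and that of Unigene62578 was 5.17%, 6.45% and 7.98%. JK184576 held 1.72% in S1, resting on 2 reads, and 4.06% in S3. For the ratio of S3 to S2, the interval of Unigene62578 (3.49 to 5.22) lay above that of JK180262 (2.89 to 3.43). The 6 sequences had ratios of S3 to S2 between 3.09 and 4.26, and ratios of S2 to S1 between 11.1 and 32.1. Being 176 to 590 bases long, they may be separate genes or pieces of fewer transcripts, which cannot be told from the table.

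**Figure D2:**
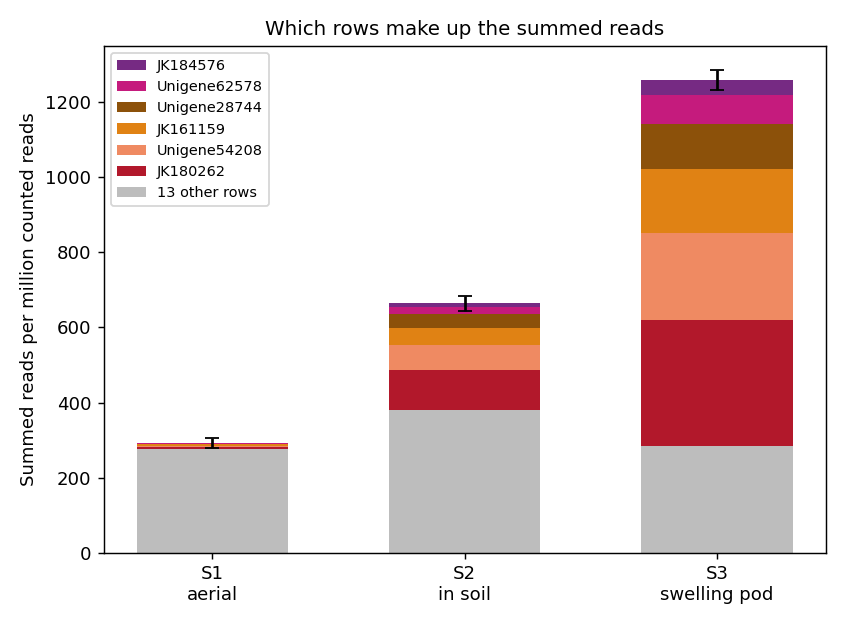
Summed reads of the asparagine synthetases per 1000000 counted reads (RPM) in S1, S2 and S3, with each of the 6 increasing sequences in color and the other 13 in grey, and the 95% exact Poisson interval of the sum. The grey part is 275, 381 and 285 RPM, and the colored part is 16.8, 283 and 975.

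Which sequences carried the difference depended on the step. From S1 to S2 the 6 sequences held 71.5% of the gain in summed RPM, and EZ741436 alone held another 20.7%. From S2 to S3 they held 116% of it, because the other 13 sequences together were lower in S3 and counted as -16.2%. From S1 to S3 they held 99.0%, and the other 13 held 1.02%.

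Added in order of their share of the S1 to S3 difference, the leading 2 sequences reached 57.7%, the leading 3 reached 74.7%, the leading 4 reached 87.0%, and the leading 5 reached 94.9%. When the leading sequence was left out, the summed level in S3 was still 3.24 times that in S1. Without the leading 3 the ratio was 1.88, and without all 6 it was 1.04 (0.973 to 1.10). That last ratio was 0.903 and 0.917 after the libraries were rescaled by the median of ratios or by the upper quartile, so the direction of the other 13 over the whole course depends on the scaling.

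The 13 other sequences were the main asparagine synthetase mRNAs of the aerial gynophore. Their reads numbered 1901, 2544 and 2037, or 275, 381 and 285 RPM. Their summed level was 1.39 times higher in S2 than in S1 (1.31 to 1.47), and S3 was at 0.747 times S2 (0.705 to 0.793). The summed level of these sequences thus peaked in the soil before the pod swelled.

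EZ741436 was the most read of them and, at 1411 bases, among the longest members. It best matched the same Securigera parviflora protein as JK161159. Its reads numbered 643, 1136 and 868, or 65.9, 121 and 86.0 RPKM. The S2 level was 1.83 times the S1 level (1.66 to 2.02), the S3 level was 0.713 times the S2 level (0.652 to 0.780), and the S3 level was 1.30 times the S1 level (1.18 to 1.45). GW974618, 611 bases long, had the same course at a lower level. It had 169, 274 and 204 reads, or 40.0, 67.2 and 46.7 RPKM, with ratios of 1.68 (1.38 to 2.05) and 0.695 (0.577 to 0.836).

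EZ740245, 1133 bases long and matched to a common bean (Phaseolus vulgaris) asparagine synthetase, had the highest level per base of all members in S1. Its reads numbered 585, 582 and 445, and its RPKM was 74.7, 77.0 and 54.9. The level stayed within counting error between S1 and S2, at a ratio of 1.03 (0.917 to 1.16), and was 0.714 times as high in S3 as in S2 (0.629 to 0.809). Unigene61986, 424 bases long and matched to the same bean protein, was also lower in S3, with 93, 86 and 64 reads, or 31.7, 30.4 and 21.1 RPKM, and a ratio of S3 to S1 of 0.665 (0.476 to 0.924). Unigene68984, 733 bases long, had 108, 131 and 91 reads, or 21.3, 26.8 and 17.4 RPKM, and its level in S3 was 0.648 times that in S2 (0.491 to 0.854).

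A separate class is annotated as type III asparagine synthetase, with 4 members. Their summed reads were 278, 294 and 335, or 40.2, 44.1 and 46.9 RPM. The sum in S3 was 1.16 times that in S1, with an interval that reaches just below 1 (0.991 to 1.37). Its ratio of S3 to S2, 1.06, was 0.891 and 0.897 after the rescalings, which turns its direction. EZ743890, the longest member at 1416 bases, made up most of this class with 192, 191 and 228 reads, or 19.6, 20.2 and 22.5 RPKM. Unigene14150, 657 bases long, had 73, 86 and 91 reads, or 16.1, 19.6 and 19.4 RPKM. For both, the intervals of all ratios between stages held 1. JK161851 had 5, 15 and 7 reads, or 1.39, 4.32 and 1.88 RPKM, and JK160769 had 8, 2 and 9 reads, or 1.97, 0.511 and 2.14 RPKM. At these depths only differences of several times could have been seen.

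The rest of the family was rare. JK192457, 374 bases long and matched to a sunflower (Helianthus annuus) protein, had 14, 31 and 19 reads, or 5.42, 12.4 and 7.11 RPKM, and its S2 level was 2.29 times the S1 level (1.18 to 4.66). Unigene46118, 247 bases long, had 9, 8 and 10 reads, or 5.27, 4.85 and 5.66 RPKM. GW975574 had 1 or 2 reads in each library. JK194294, 550 bases long, had no read in any library. Taking 3 reads as the limit of a count of 0 gives 0.789, 0.817 and 0.763 RPKM in S1, S2 and S3. This limit holds for uniquely placed reads only, so reads that also fit another sequence are not covered by it.

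**Figure D3:**
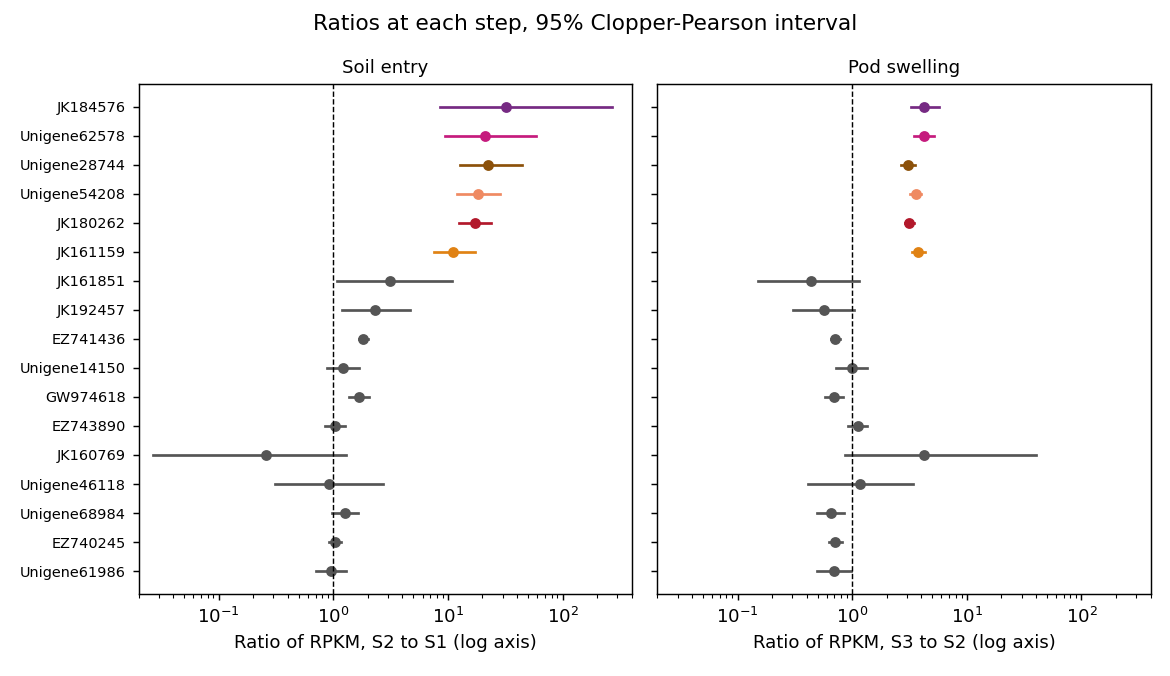
Ratio of RPKM at soil entry (S2 to S1) and at pod swelling (S3 to S2) on log axes for the 17 asparagine synthetase sequences with at least 10 reads over the 3 libraries, with 95% exact Clopper-Pearson intervals and a dashed line at 1. The 6 colored sequences lie at 11.1 to 32.1 at soil entry and at 3.09 to 4.26 at pod swelling; of the 12 other sequences with a read, 5 have an interval below 1 at pod swelling and none has an interval above 1.

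Among the 12 other sequences with a read, the interval of the ratio of S2 to S1 lay above 1 for 4, below 1 for none, and held 1 for 8. From S2 to S3 it lay above 1 for none and below 1 for 5, and from S1 to S3 it lay above 1 for 1 and below 1 for 2. All 6 increasing sequences had intervals above 1 at both steps.

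The order of levels within the family, compared per base, was reshuffled between stages. In S1 the highest were EZ740245 at 74.7 RPKM (68.8 to 81.0) and EZ741436 at 65.9 RPKM (60.9 to 71.2), whose intervals overlap, followed by GW974618 at 40.0 RPKM (34.2 to 46.5). Of the 6 increasing sequences, Unigene54208 stood highest in S1, in place 8 of 19, and JK184576 lowest, in place 17. In S2, Unigene28744 at 221 RPKM (195 to 250), Unigene54208 at 212 RPKM (193 to 233) and JK180262 at 186 RPKM (172 to 200) led, each overlapping the next, and EZ741436 followed at 121 RPKM (114 to 128).

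In S3, Unigene54208 at 756 RPKM (721 to 794) and Unigene28744 at 684 RPKM (639 to 732) overlapped at the top. JK180262 at 584 RPKM (561 to 608), JK161159 at 287 RPKM (271 to 303) and Unigene62578 at 178 RPKM (163 to 193) were each below the one before by more than counting error. EZ741436, at 86.0 RPKM (80.4 to 92.0), then overlapped JK184576 at 72.8 RPKM (64.5 to 81.8). The leading sequence of S1, EZ740245, was in place 8.

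The best matched protein did not separate the increasing sequences from the rest. The 6 had 4 different best matches, the other 13 had 8, and 2 proteins were shared by both groups. The soybean protein ABB04097 was the best match of Unigene54208 and JK184576, which were 18.1 and 32.1 times higher in S2 than in S1, and also of GW974618, which was 1.68 times higher and then lower in S3. The Securigera parviflora protein AAO38524 was the best match of JK161159, with ratios of 11.1 and 3.75, and of EZ741436, with ratios of 1.83 and 0.713. By contrast, both sequences matched to the soybean protein AAC09952, JK180262 and Unigene62578, were among the 6, and their summed reads were 49, 831 and 2945. Both sequences matched to the bean protein ABU95104 were outside it, and their summed reads were 678, 668 and 509. Reads with more than 1 possible place were not counted, so those shared by near-identical members are missing from each of them, and levels of close copies are uncertain.

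Nearly all members shared 1 functional annotation. The GO process asparagine metabolic process and the GO function of a ligase that uses glutamine as amide donor were given to 18 of the 19, the exception being Unigene46118. The 19 members had 10 different best matched proteins, and their lengths ran from 176 to 1416 bases with a median of 572.

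Against the background of the whole table, 8 of the 18 members with a read were at least 2 times higher in S2 than in S1 on the scale of RPKM + 1, where 9.03% of the 81517 sequences with a read were, and 0 were as much lower, where 9.19% were. From S2 to S3, 7 members were higher (18.6% of all sequences) and 0 lower (11.4%). From S1 to S3, 6 members were higher (21.0%) and 0 lower (13.9%). Since the family was chosen from these contrasts, nothing is read from these shares. The members past the limit beside the 6 were JK192457 and JK161851 at the first step and JK160769 at the second, each with 31 reads or fewer in every library.

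Few members lay near the limit of 2 times. From S1 to S2, JK192457 was just inside at 2.09 in RPKM + 1 and EZ741436 just outside at 1.82. From S1 to S3 there was a wide gap, with JK161159 the nearest inside at 36.6 and EZ741436 the nearest outside at 1.30. The median log2 ratio over the 18 members was 0.80 from S1 to S2, 0.07 from S2 to S3 and 0.26 from S1 to S3, beside 0.01, 0.19 and 0.19 over all sequences with a read in either library. Rescaling the libraries by the median of ratios multiplies every ratio of S3 to S2 by 0.838 and every ratio of S3 to S1 by 0.872, which turned the middle median to -0.18. From S2 to S3 and from S1 to S3 the median thus shows little of a difference that 6 members carry. From S1 to S2 it stood above that of all sequences, in a family chosen for its summed rise. At that step the other 13 sequences held 28.5% of the gain in summed RPM.

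The increasing sequences were also placed among the well read sequences of the table. They had been picked for being higher at both steps, so a high place was set in advance and nothing is read from it. The numbers below include these members themselves where they had enough reads. S1 counts under 3 reads were taken as 3. Of the 8887 sequences with at least 500 reads over the 3 libraries, 22 had a ratio of S3 to S1 as large as the 53.7 of JK180262 (39.7 to 74.4), or 0.248%. For Unigene54208, at a ratio of 64.6 (43.6 to 100.1), the number was 16, for Unigene28744, at 69.4 (39.5 to 135), it was 14, and for JK161159, at 41.8 (28.8 to 63.1), it was 25. The ratios of Unigene62578, 89.6 (40.9 to 245), and JK184576, 137 (37.5 to 1135), rest on 6 and 2 reads in S1.

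Other genes of nitrogen metabolism around asparagine were listed by role and matched by annotation words. The values of each list are given next, with the number of its members whose RPKM + 1 differed by 2 times or more from S1 to S3, beside 21.0% higher and 13.9% lower over all sequences with a read. Several of these counts lie near those shares, and nothing particular to a list is read from them. Asparaginase, which splits asparagine into aspartate and ammonia, had 8 sequences with 89.0, 85.9 and 136 RPM, of which 1 was higher and 1 lower. The most read of them, EZ722406, had 408, 364 and 664 reads, or 40.4, 37.3 and 63.5 RPKM, and Unigene19089 was 2.27 times higher in S3 than in S1 (1.61 to 3.24). A further asparaginase, EZ729975, had 103, 114 and 151 reads.

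Glutamine synthetase makes the amide donor of the reaction. Its 5 sequences had 716, 1146 and 828 RPM, and 1 was higher and 0 lower from S1 to S3. EZ724846, annotated as a nodule isozyme, led them with 2963, 4791 and 3673 reads, or 296, 495 and 354 RPKM. The list thus peaked in S2, as did EZ741436 and GW974618 among the asparagine synthetases.

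The summed levels of glutamate synthase and of aspartate aminotransferase, which provide glutamate and aspartate, were lower at each later stage, though not every member was. The 24 glutamate synthase sequences had 834.5, 465.5 and 342 RPM, and 0 were higher and 14 lower from S1 to S3. Unigene16342, an NADH glutamate synthase, had 1519, 723 and 323 reads, or 98.9, 48.7 and 20.3 RPKM. The ferredoxin glutamate synthase sequences of the list had 149, 81.4 and 173 RPM, and so were not lower in S3 than in S1. The 11 aspartate aminotransferase sequences had 258, 168 and 98.9 RPM, and 0 were higher and 5 lower. Their most read sequence, EZ724264, had 544, 552 and 354 reads, and its ratio of S2 to S1 was 1.05 (0.932 to 1.19).

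Glutamate dehydrogenase, which can release ammonia from glutamate, had 10 sequences with 61.8, 85.0 and 98.5 RPM, of which 1 was higher and 1 lower, and EZ752735 led with 208, 212 and 447 reads. Phosphoenolpyruvate carboxylase, which supplies the carbon of aspartate, had 16 sequences with 523, 517 and 379 RPM, 1 higher and 1 lower, and FJ222240 led with 1353, 1008 and 647 reads.

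Among carriers, the 82 amino acid transporters had 700, 816 and 830 RPM, with 15 higher and 11 lower, and Unigene72021 was 2.91 times higher in S3 than in S1 (2.48 to 3.42). The 70 sequences of nitrate and ammonium uptake and reduction, 67 of them with a read, had 378, 498 and 486.5 RPM, with 16 higher and 7 lower, and Unigene7758, a nitrate transporter, had 633, 504 and 699 reads. The ureide route, the other main form in which many legumes move nitrogen, had 22 sequences with 158, 157 and 275.5 RPM, 7 higher and 0 lower, and its most read sequence, the allantoinase EZ725884, had 361, 251 and 332 reads. No sequence of the table was described as asparaginyl-tRNA synthetase.

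The list of darkness and carbon starvation markers had a sum that was higher at both steps. From S2 to S3 the difference was 998 RPM for the list, 1117 RPM for its auxin-repressed sequences and -183 RPM for its proline dehydrogenases. At that step 6 sequences of the list were at least 2 times higher in RPKM + 1 and 2 were lower, beside 18.6% and 11.4% of all sequences. Of those higher, 4 were auxin-repressed and 0 were proline dehydrogenases, so other markers of the list were higher too. Its 18 sequences, 15 with a read, had 264, 796 and 1793 RPM, and 7 were higher and 0 lower from S1 to S3. The ratio of its sum was 3.02 from S1 to S2 (2.86 to 3.18) and 2.25 from S2 to S3 (2.18 to 2.33). Its reads came mainly from proline dehydrogenase and from auxin-repressed proteins, small proteins known from dormant buds. The auxin-repressed sequences had 486, 1817 and 9930 reads and led the list in S3, and among them EZ721480 had 274, 1106 and 6519 reads, or 60.3, 252 and 1386 RPKM. Proline dehydrogenase, which begins the breakdown of proline, had 853, 3032 and 1943 reads and led in S1 and S2, and its most read sequence, Unigene63988, had 378, 1671 and 1210 reads.

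**Figure D4:**
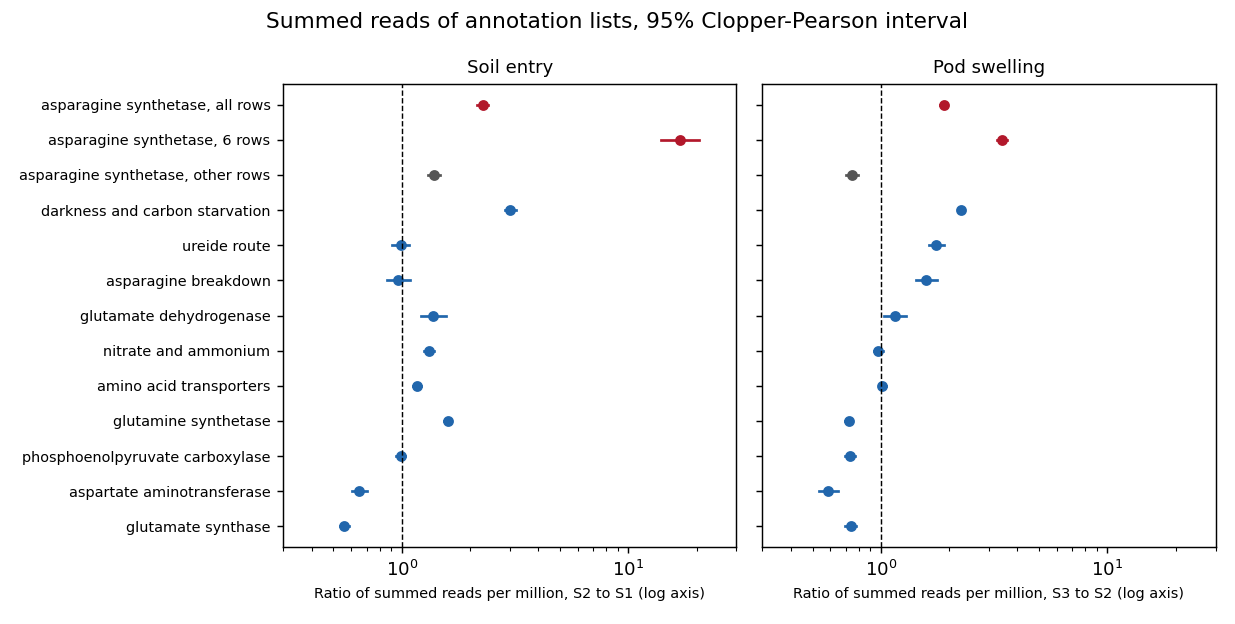
Ratio of summed RPM at soil entry (S2 to S1) and at pod swelling (S3 to S2) on log axes for the asparagine synthetases and 10 annotation lists, with 95% exact Clopper-Pearson intervals and a dashed line at 1. The whole asparagine synthetase family lies at 2.28 and 1.90. The darkness and carbon starvation list lies at 3.02 and 2.25, and its auxin-repressed sequences led it in S3. The 6 sequences, at 16.9 and 3.44, were picked for being higher at both steps.

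The 3 libraries also differed in their tissue markers. The 15 green tissue sequences (chlorophyll-binding proteins and the small subunit of Rubisco), 14 of them with a read, summed to 689, 40.9 and 78.3 RPM in the 3 libraries. For 8 of them RPKM + 1 in S1 was 2 times that in S2 or more, beside 9.19% of all sequences with a read. The 49 sequences of seed storage and oil body proteins, 36 of them with a read, summed to 630, 749 and 221 RPM, most of them in S1 and S2 from EZ742210, which is described as similar to lipid transfer proteins. Ribosomal proteins summed to 7088, 7879 and 5356 RPM. For nodules the 2 sequences found were leghemoglobin reductases, and none was described as leghemoglobin itself. The part of tissue composition in the asparagine synthetase values was not tested.

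The sequences whose course was most like that of the whole family were found among 8517 annotated sequences with at least 500 reads, by the distance of their log2 ratios over the 3 libraries. Unigene18412, described as a protein kinase, was nearest at a distance of 0.0201, with 91, 199 and 399 reads. EZ729840, a vacuolar processing enzyme, followed at 0.0334 with 109, 245 and 494 reads. EZ744523, Unigene14830 and EZ721242 carry no functional description and lay at 0.0581, 0.0876 and 0.0930, and EZ721242 was abundant, with 8498, 17809 and 34646 reads. In all, 111 sequences lay within a distance of 0.5.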

How the data were processed

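The authors counted the uniquely aligned reads of every reference sequence and deposited these counts with RPKM values and the percent of bases covered. RPKM as deposited by the authors equals reads per kilobase per 1000000 counted reads (largest absolute deviation 4.93e-07 RPKM). The sources used here do not name the aligner, and no peanut genome was used, so no positions or sequences are given. Of the table's identifiers, 0 matched the supplied list of peanut genes.

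Members were matched by words in the description of the best protein match. All members with at least 10 reads over the 3 libraries were named, with the most read sequence of each list, asparaginases with at least 100 reads, the members nearest the limit of 2 times and the 5 sequences of most similar course. The members and the lists were chosen with earlier results of these data known. The words for glutamate synthase also matched folylpolyglutamate synthase, which was removed after seeing the data. Intervals at 95% were exact Poisson for a level and exact Clopper-Pearson for a ratio of 2 libraries. A pseudocount of 1 was added to RPKM for the limit of 2 times and for medians. Alternatives were the median of ratios and upper quartile scalings, a pseudocount of 0.1, a minimum of 10 reads, unigenes or public sequences alone, other annotation columns, the family without its most read sequence, and sums of RPKM. The median of ratios was taken over RPKM divided by its arithmetic mean in the 3 libraries, for sequences with at least 1 RPKM in each. With 1 library per stage no test was made. The scripts were tested on simulated data. The tools were scipy 1.17.1, pandas 2.3.3, matplotlib 3.10.9 and numpy 2.4.6 in Python 3.11.15.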

Additional observations from a re-analysis of the deposited data

How the results depend on the processing

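No paired analysis was possible because a stage is represented by 1 library only. The summed ratio of S2 to S1, 2.28, was 3.59 over unigenes alone, 2.02 over public sequences alone, 1.95 without JK180262 and 3.50 for summed RPKM. The ratio of S3 to S2, 1.90, was 1.59 after the median of ratios scaling, 1.60 after the upper quartile, 2.76 over unigenes, 1.60 over public sequences, 1.66 without JK180262 and 2.50 for summed RPKM. The ratio of S3 to S1, 4.32, was in the same order 3.77, 3.82, 9.92, 3.24, 3.24 and 8.74. Of these settings none turned the direction, and matching any annotation column gave the same 19 sequences. In alternatives chosen after seeing the data, adding the sequences with the GO process asparagine metabolic process gave 2.12 for S2 to S1 and 3.92 for S3 to S1, and leaving out the 6 increasing sequences gave 1.39, 0.747 and 1.04, the second in the opposite direction. The median log2 ratio of S3 to S2 turned from 0.07 to -0.18 and -0.17 under the scalings. The number of members at least 2 times lower went from 0 to 1 for S2 against S1 with a pseudocount of 0.1, and from 0 to 1 for S3 against S2 with that pseudocount and under both scalings. The scalings also took the number at least 2 times higher in S3 than in S2 from 7 to 6. The share of the difference held by the 6 sequences measured in RPKM was 87.6% at soil entry and 106% at pod swelling, and in RPM it was 136% and 135% at pod swelling under the scalings, and 103% from S1 to S3 under both. For single sequences, 87 values stayed within their counting interval under an alternative and 15 moved beyond it. Under a scaling, ratios turned direction only for EZ743890, JK160769, Unigene46118 and Unigene61986, each time for a ratio whose interval held 1. Depth limits the members with few reads in S1: 7 had fewer than 10 reads there.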

Other observations

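The glutamate synthase list, divided after its values had been seen, held a pair of different courses. The 19 NADH glutamate synthase sequences had 685, 384 and 169 RPM (reads per 1000000 counted reads) in order of stage. The 5 ferredoxin glutamate synthase sequences had 149, 81.4 and 173, and Unigene72499, the most read of them, was 2.29 times higher in S3 than in S2 (1.97 to 2.67). The ferredoxin enzyme is known from green leaves and the NADH enzyme from non-green tissues such as roots. Here the NADH sum was highest in S1, where the green tissue sequences had 689 RPM. The ferredoxin sum was highest in S3, where the green tissue sequences had 78.3 RPM. Any relation of these courses to green tissue was not tested.

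A search for the course of the 6 increasing asparagine synthetases, in place of the family's sum, was added after seeing the data. Of the 8517 candidates, 4 lay within a distance of 0.5 on the log2 scale. They were Unigene71344, whose reads in order of stage were 7, 120 and 400, EZ728467 with 11, 159 and 720, Unigene70236, a UPF0497 membrane protein, with 26, 401 and 1920, and Unigene69224 with 7, 103 and 510. The other three carry no functional description. The next in order, GW972668, described as similar to a seed lectin, lay at 0.676.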
